A study of Mus musculus with 14 samples.

Results

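The genes described here are 9 genes of myelin, *Mbp*, *Mobp*, *Cldn11*, *Mag*, *Mog*, *Opalin*, *Cnp*, *Ugt8a* and *Myrf*, out of 26528 genes counted in nuclei of the mouse brain. They were taken as a named list, and all 9 were found. The nuclei came from vascular fragments that were enriched from brain by centrifugation through Ficoll, and they were profiled by snRNAseq with the PIPseq method, in which a unique molecular identifier (UMI) on every captured transcript keeps copies from being counted again. There was 1 library from control mice, labeled wild type, and 1 from *Cdh5CreER;Tgfbr1 CKO/-* (CKO) mice, and per the study's methods each pooled 2 brains. In CKO mice, Cre under control of the *Cdh5* promoter in endothelial cells (ECs) was activated with 4-hydroxytamoxifen between postnatal days 3 and 5, which targets the floxed allele in ECs. The other allele of this genotype is written as null (-), which all cells share, so the oligodendrocyte lineage of CKO mice also carried 1 null allele, and its part cannot be told apart from that of the loss in ECs. The study speaks of its controls as wild type in phenotype. For control retinas it names *Cdh5CreER;Tgfbr1 CKO/+* or *Cdh5CreER;Tgfbr2 CKO/+* as typical. For these libraries, neither the alleles of the controls nor whether they received 4-hydroxytamoxifen is stated. The methods give the age as postnatal day 14, whereas the labels speak of young adults. The control library held 16649 nuclei with 49798325 UMIs and the CKO library 14675 nuclei with 31033373 UMIs, under 21 cell type labels given by the authors, and 2 barcodes occurred in both libraries. With 1 library per genotype there was no replicate check and no test, and all intervals are 95% intervals that cover counting error only.

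The labels were first compared with markers of each type. Levels are UMIs of a gene per 1000000 UMIs of all nuclei with a label (CPM). Nuclei labeled oligodendrocyte precursors (OPCs) numbered 400 in the control and 208 in CKO, with 520679 and 208842 UMIs. Nuclei labeled oligodendrocytes numbered 603 and 640, with 1551112 and 728425 UMIs. *Pdgfra*, the receptor that marks OPCs, was at 1064 and 790.1 CPM in OPCs of the control and CKO libraries and at 3.87 and 15.1 CPM in oligodendrocytes. The 13 genes of mature oligodendrocytes summed to 2517 and 3115 CPM in oligodendrocytes and to 146 and 52.7 CPM in OPCs. Of the sums in OPCs, *Ptgds* made up 86.4 and 19.2 CPM, although it had 0 and 3 UMIs in oligodendrocytes. Both labels therefore carried their own markers. *Xist*, made from the inactive X chromosome, was at 4394 CPM in control oligodendrocytes and at 0 UMIs in CKO oligodendrocytes, and the Y-linked gene *Uty* was at 108 and 251 CPM. The libraries thus differed in sex-linked transcripts as well as in genotype, and these cannot be told apart. *Tgfbr1* had 56 and 24 UMIs in oligodendrocytes, 46 and 10 in OPCs and 401 and 431 in ECs. UMIs were counted per gene from 3′ ends, so these values do not check the deletion.

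Myelin is the multilayered membrane that oligodendrocytes wrap around axons in the central nervous system. Oligodendrocytes arise from proliferating OPCs, which leave the cell cycle, pass through a newly formed stage and then switch on the genes for myelin proteins and lipids. In the mouse brain much of this takes place in the first postnatal weeks.

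The genes for the proteins that hold the layers together were far higher in oligodendrocytes than in OPCs. *Mbp* codes for the basic protein that joins the cytoplasmic faces of the membrane. It was at 10960.5 CPM in oligodendrocytes and 159 in OPCs of the control library, a ratio of 68.8 (55.4 to 86.4). In the CKO library it was at 11854 and 273 CPM, a ratio of 43.4 (33.5 to 57.4). *Mobp*, which codes for another basic protein of compact myelin, was at 4768 CPM in control oligodendrocytes and at 23.0 in control OPCs, a ratio of 207 (118 to 401). In the CKO library it was at 5307 CPM in oligodendrocytes and had 0 UMIs in OPCs. Set against the 3 UMIs that a count of 0 allows, it was at least 369-fold higher in CKO oligodendrocytes than in CKO OPCs. *Cldn11* codes for the claudin of the tight junctions between myelin layers. It had 799 and 372 UMIs in control and CKO oligodendrocytes, at 515 and 511 CPM, against 4 and 5 UMIs in OPCs. The oligodendrocyte over OPC ratios of *Cldn11* were 67.1 (26.1 to 247) and 21.3 (9.06 to 66.1). The intervals of the oligodendrocyte and OPC levels did not overlap for *Mbp*, *Mobp* or *Cldn11* in either library.

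The genes for surface proteins were at or near 0 in OPCs. *Mag* codes for an adhesion molecule that faces the axon. It was at 1086 and 1330.3 CPM in control and CKO oligodendrocytes and had 3 and 2 UMIs in OPCs, which gives oligodendrocyte over OPC ratios of 189 (64.4 to 915) and 139 (38.4 to 1149). *Mog*, for a protein of the outermost myelin surface, was at 1105 and 1230.0 CPM in oligodendrocytes, with 2 and 1 UMIs in OPCs and ratios of 288 (79.5 to 2377) and 257 (46.0 to 10158). *Opalin*, for an oligodendrocyte membrane glycoprotein, was at 191 and 216 CPM in oligodendrocytes and had 0 UMIs in OPCs of both libraries. Against the same 3 UMIs, it was at least 33.2-fold higher in oligodendrocytes of the control and at least 15.0-fold higher in those of the CKO library. The smaller bound in the CKO library goes with the smaller number of UMIs in its OPCs.

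The genes for the enzyme of galactolipid synthesis and for the transcription factor had lower oligodendrocyte over OPC ratios than most of the structural and surface genes. *Ugt8a* codes for the enzyme that makes galactosylceramide, the major myelin glycolipid. It was at 1021 CPM in oligodendrocytes and 225 in OPCs of the control library, a ratio of 4.54 (3.76 to 5.53), and at 1150.4 and 192 CPM in the CKO library, a ratio of 6.01 (4.37 to 8.47). *Myrf* codes for a membrane-bound transcription factor that is required for the expression of myelin genes. It was at 236 and 44.2 CPM in oligodendrocytes and OPCs of the control, a ratio of 5.34 (3.51 to 8.53), and at 270.4 and 33.5 CPM in the CKO library, a ratio of 8.07 (3.84 to 20.3). In the control library the ratio intervals of *Ugt8a* and *Myrf* lay below those of *Mbp*, *Mobp*, *Cldn11*, *Mag* and *Mog*. The interval of *Myrf* overlapped that of *Cldn11* in the CKO library. *Cnp* codes for an enzyme of the cytoplasm between myelin membranes. Its ratios of 18.7 (7.21 to 69.3) and 19.5 (5.29 to 163) rested on 4 and 2 UMIs in OPCs. In OPCs *Ugt8a* made up 47.2% (40.8 to 53.6) of the UMIs of the 9 genes in the control and 35.1% (26.4 to 44.6) in CKO, against 5.10% (4.85 to 5.35) and 5.22% (4.88 to 5.57) in oligodendrocytes. Summed over the 9 genes, oligodendrocytes were at 42.0 (37.1 to 47.8) times the OPC level in the control and 40.4 (33.6 to 49.0) times in the CKO library. In oligodendrocytes most of these UMIs belonged to *Mbp*, and without it the ratios were 28.6 (24.5 to 33.6) and 37.4 (28.8 to 49.4).

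**Figure D1:**
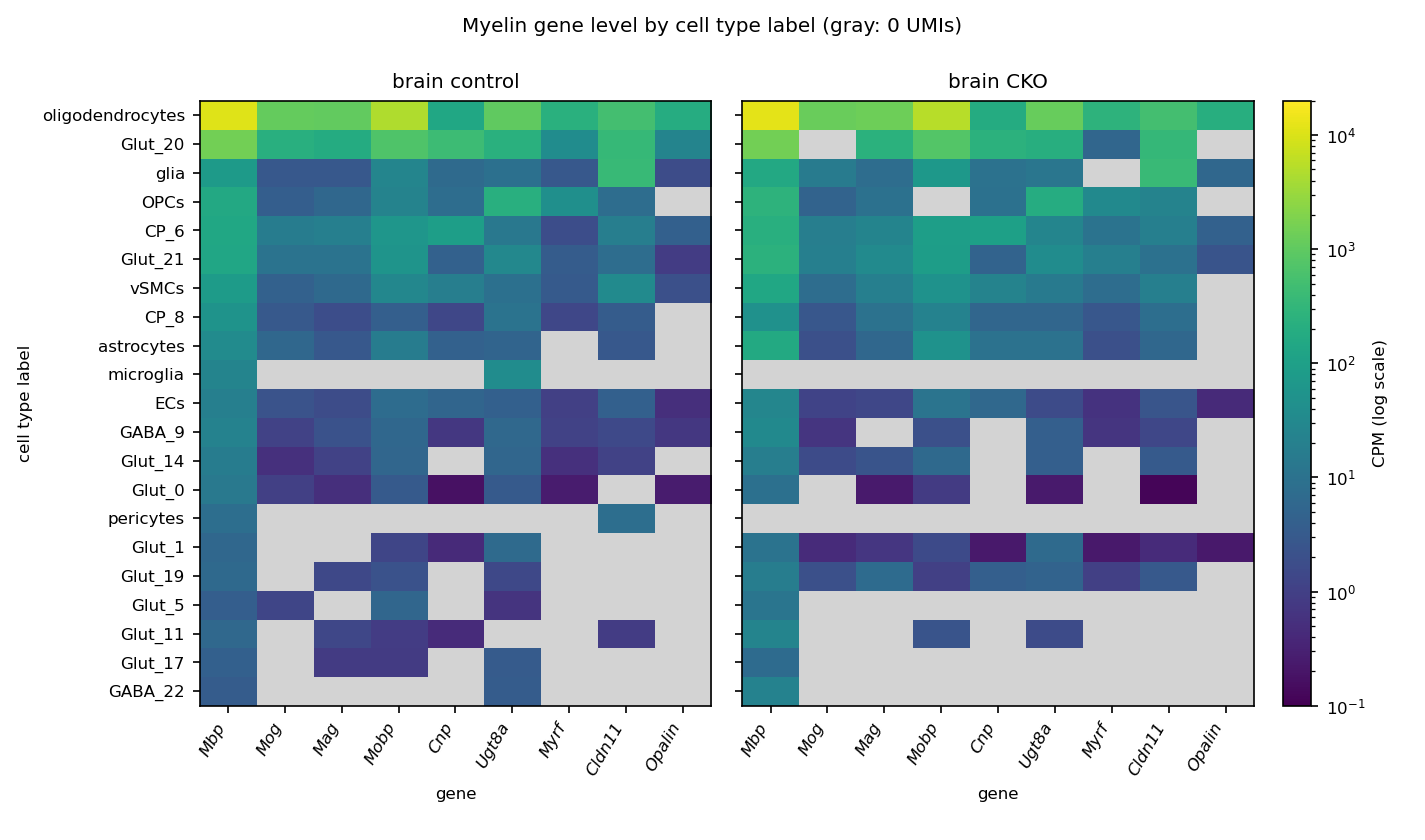
Level of each of the 9 myelin genes (columns) in each cell type label (rows) in the control (left) and CKO (right) library, as CPM on a logarithmic color scale, with gray for 0 UMIs. Oligodendrocytes held the highest level of each gene except *Cnp*, whose highest level was in Glut_20 (433 CPM in the control and 258 CPM in CKO, the latter with an interval that overlapped that of oligodendrocytes).

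Across all labels, 83.7% of the UMIs of the 9 genes in the control and 83.7% in CKO lay in nuclei labeled oligodendrocytes. Without *Mbp*, the summed level in the control library was 9066 CPM (8917 to 9217) in oligodendrocytes. Next came the cluster labeled Glut_20 at 2205 (2080.2 to 2336), the nuclei labeled glia at 430.0 (399.6 to 462), OPCs at 317 (270.4 to 369) and the cluster labeled CP_6 at 231 (214 to 248). The intervals of these 5 did not overlap, but they do not cover the spread between nuclei. The 10 nuclei with the most UMIs of the 9 genes held 49.2% of them in CP_6, 21.9% in glia and 19.9% in Glut_20 of the control, against 5.66% in oligodendrocytes. In the CKO library these shares were 38.7%, 41.3%, 21.7% and 5.23%. Glut_21 at 123 CPM (104 to 145) and vSMCs at 106 (90.4 to 124) overlapped each other. ECs were at 26.7 CPM (22.7 to 31.3). In the CKO library the order was the same for oligodendrocytes and Glut_20, at 10202 (9971 to 10436) and 1821 (1628 to 2030.0), and then glia at 509 (448 to 575). CP_6 at 301 (273 to 332) and OPCs at 273 (207 to 354) overlapped there, as did OPCs and Glut_21 at 219 (188 to 253). In that library vSMCs were at 143 CPM (101 to 197) and ECs at 24.5 (21.0 to 28.5). Apart from pericytes and microglia, the labels not named so far were between 3.54 CPM in Glut_11 and 38.2 in astrocytes of the control and between 0 and 87.0 CPM in the CKO library, there too highest in astrocytes. The labels at 0 were Glut_17, Glut_5 and GABA_22, where a count of 0 allows 3.12, 17.1 and 67.1 CPM. Pericytes and microglia of the control were at 8.21 (0.208 to 45.7) and 37.5 CPM (7.74 to 109.7). Those of the CKO library had 0 UMIs of any of the 9 genes, among 9213 and 14637 UMIs in all.

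*Cldn11* and *Cnp* were also held by labels outside the oligodendrocyte lineage. *Cldn11* was at 378 CPM (349.6 to 408) in nuclei labeled glia of the control library and 391 (338 to 449) in those of the CKO library, below its level in oligodendrocytes of 515 (480.0 to 552) and 511 (460.1 to 565), with intervals that did not overlap. In the same glia nuclei *Mag* was at 2.89 and 8.01 CPM and *Mog* at 2.89 and 16.0, whereas *Mbp* was at 79.1 and 156 CPM and *Mobp* at 25.4 and 66.1. *Cldn11* made up 74.3% (71.2 to 77.1) and 58.7% (53.2 to 64.1) of the UMIs of the 9 genes in glia, against 2.57% (2.40 to 2.75) and 2.32% (2.09 to 2.56) in oligodendrocytes. *Mbp* made up 15.5% (13.2 to 18.1) and 23.5% (19.0 to 28.4) of them in glia. Among the genes of mature oligodendrocytes their most abundant was *Ptgds*, at 8921 and 8824 CPM of the 10501 and 10339 CPM of the whole list. *Ptgds* had 0 and 3 UMIs in oligodendrocytes of the control and CKO libraries, so the sum in glia was carried by a gene that was at or near 0 in oligodendrocytes.

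*Cnp* was at 93.6 CPM (83.5 to 105) in CP_6 of the control library and 105 (88.2 to 123) in CP_6 of the CKO library. The levels in oligodendrocytes were 144 (126 to 164) and 187 (157 to 221). Of all *Cnp* UMIs in the control library, 36.0% lay in CP_6, 26.6% in Glut_20 and 26.0% in oligodendrocytes. In the CKO library the shares were 35.9%, 11.6% and 34.2%. Fewer of the UMIs of *Mbp* lay in CP_6, at 2.43% and 2.98%. *Cnp* was found in 21.1% and 15.8% of CP_6 nuclei, at median depths of 1307 and 869 UMIs, and in 1.09% and 1.39% of ECs, at median depths of 1347 and 1491. Thinned to 500 UMIs per nucleus, which left out 130 and 218 CP_6 nuclei and 416 and 343 ECs, the shares were 6.55% (5.07 to 8.30) and 6.34% (4.37 to 8.83) in CP_6 and 0.194% (0.0530 to 0.497) and 0.231% (0.0847 to 0.501) in ECs. The share of CP_6 nuclei with *Cnp* was thus above that in ECs in both libraries, with intervals that did not overlap.

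Glut_20 was the label other than oligodendrocytes with the highest summed level, at 18.6% (17.8 to 19.5) of the oligodendrocyte level in the control and 14.9% (13.7 to 16.2) in CKO. Its 329 and 170 nuclei had median depths of 963 and 666 UMIs. *Cnp* was at 433 CPM (378 to 493) and 258 (189 to 345), higher than in oligodendrocytes in the control, whereas in the CKO library the intervals of the labels overlapped. *Cldn11* was at 362 CPM (313 to 418) and 337 (257 to 434), with intervals that overlapped those in glia. These levels were 70.4% (59.8 to 82.5) and 66.0% (49.4 to 86.9) of the oligodendrocyte level. *Myrf* was at 16.1% (9.71 to 25.2) of the oligodendrocyte level in the control. The genes other than *Cnp* and *Cldn11* lay there between 12.9% for *Opalin* and 23.2% for *Ugt8a*. In CKO nuclei *Myrf* was at 2.08% (0.0523 to 11.7), which rested on 1 UMI. *Mog* had 115 UMIs in control and 0 in CKO nuclei of Glut_20. Markers of several classes were present in Glut_20. Neuron markers summed to 5395 and 4596 CPM, led by *Syt1*, and astrocyte markers to 2357 and 2742, led by *Slc1a2*. All 9 neuron markers had UMIs in both libraries, and 8 and 7 of the 8 astrocyte markers did. Their part in the values of the myelin genes was not tested.

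ECs do not make myelin, and they served as the background. Summed over the 9 genes, ECs were at 45.8 CPM (40.5 to 51.7) in the control and 51.7 (46.4 to 57.3) in CKO, which is 0.229% (0.202 to 0.258) and 0.234% (0.210 to 0.260) of the oligodendrocyte level. *Mbp* was at 19.1 and 27.1 CPM in ECs and *Mobp* at 7.41 and 10.8. The other 7 genes were between 0.517 CPM for *Opalin* and 5.34 CPM for *Cnp* in the control and between 0.438 and 6.13 CPM for the same genes in the CKO library. OPCs were above ECs for *Ugt8a*, *Mbp* and *Myrf*, with intervals that did not overlap in either library. In OPCs *Ugt8a* was at 225 CPM (186 to 269) against 4.31 (2.79 to 6.36) in control ECs. *Myrf* was at 44.2 (28.0 to 66.3) against 1.03 (0.380 to 2.25). For *Mbp*, other labels had levels near that of OPCs. In the control it was at 143 CPM (130.4 to 156) in CP_6 and 136 (115 to 159) in Glut_21, against 159 (127 to 198) in OPCs. In the CKO library it was at 221 (197 to 247) and 251 (218 to 288), against 273 (207 to 354). The intervals of these summed levels overlapped. The share of nuclei with *Mbp* was higher in OPCs than in CP_6, at 11.0% (8.11 to 14.5) against 5.49% (4.22 to 7.02) in the control and 19.2% (14.1 to 25.3) against 10.5% (8.37 to 13.0) in the CKO library. Thinned to 500 UMIs per nucleus it was 5.65% (3.48 to 8.59) against 1.98% (1.19 to 3.07) in the control, without overlap, and 10.1% (5.62 to 16.3) against 5.15% (3.39 to 7.45) in the CKO library, with overlap. The share in vSMCs overlapped that in OPCs in both libraries, at 13.6% (10.6 to 17.1) and 16.5% (9.92 to 25.1). After thinning, vSMCs also overlapped OPCs, at 2.75% (1.38 to 4.87) and 5.88% (1.94 to 13.2). In Glut_20 the share before thinning was higher than in OPCs, at 74.8% and 62.4%. *Ugt8a* and *Myrf* in OPCs overlapped Glut_20 in both libraries, and *Myrf* in the CKO library, with 7 UMIs in OPCs, also overlapped CP_6, Glut_21 and vSMCs. *Mobp* in OPCs was above ECs in the control library alone, and *Cldn11* in the CKO library alone. For *Mog*, *Mag*, *Opalin* and *Cnp* the intervals of OPCs and ECs overlapped in both libraries, so that a level in OPCs above that of ECs was not detectable at this depth.

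The make-up of the 9 genes in ECs was not that of oligodendrocytes. *Cnp* made up 11.7% (8.06 to 16.1) of their UMIs in control ECs and 11.9% (8.69 to 15.7) in CKO ECs, but 0.718% (0.627 to 0.818) and 0.847% (0.711 to 1.00) in oligodendrocytes. Control vSMCs at 10.0% and control Glut_20 at 11.6% (10.2 to 13.1) had intervals that overlapped that of ECs. The neuron clusters Glut_0 at 0.763% (0.0926 to 2.73) and Glut_21 at 1.69% (0.551 to 3.90) in the control had intervals that overlapped that of oligodendrocytes. The counts of the 9 genes were thus not in the same proportion to each other in all labels. Of the UMIs of the 9 genes in ECs, 31.2% in the control and 36.7% in CKO lay in the 10 nuclei with the most.

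Within oligodendrocytes, the 9 genes were at similar levels in the control and CKO libraries. Summed, they were at 20026 CPM (19804 to 20250.2) in the control and 22056 (21716 to 22399.5) in CKO, 1.10 (1.08 to 1.12) times the control level. Of the 9 genes, 0 were higher and 0 lower by a fold of at least 2, with TMM scaling (trimmed mean of M values) too. Among all 2572 genes with at least 100 UMIs over both libraries, 0.661% were higher and 15.9% were lower by that fold, and 1.05% and 12.5% with TMM scaling. The ratio was above 1 for 8 of the 9 genes, from 1.08 (1.05 to 1.11) for *Mbp* to 1.30 (1.04 to 1.61) for *Cnp*, and the exception was *Cldn11* at 0.991 (0.874 to 1.12). Of all 2572 genes, 46.5% had a ratio above 1, and 54.5% with TMM scaling. The intervals of *Cldn11*, *Myrf* and *Opalin* included 1, and with TMM scaling that of *Cldn11* alone did. The median log2 ratio of the 9 genes was 0.17, against -0.06 over all 2572 genes. TMM scaling raised every log2 ratio in oligodendrocytes by 0.15, and the ratio of *Cldn11* was then also above 1. The summed ratio is thus larger than counting error, but its spread between mice is unknown.

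The libraries also differed in other transcripts found in oligodendrocyte nuclei. EC markers summed to 168 CPM in the control and 5.49 in CKO, with 9 and 2 of the 9 markers detected. The most abundant was *Ptprb* in the control at 97.3 CPM and *Mecom* in the CKO library at 4.12 CPM. Neuron markers summed to 600.2 and 205 CPM, led by *Nrg1* in both, and 0 and 3 of the 9 markers were at 0. Median depth was 2328 UMIs per nucleus in the control and 954.5 in CKO. The part of these differences in the ratios of the myelin genes was not tested.

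In OPCs, 2 of the 9 genes had at least 100 UMIs over both libraries, and 0 of them were past a fold of 2. Among all 1101 genes with as many UMIs in OPCs, 8.17% were higher and 8.99% lower in the CKO library by that fold. *Mbp* had 83 UMIs in the control and 57 in CKO, at 159 CPM (127 to 198) and 273 CPM (207 to 354), a ratio of 1.71. *Ugt8a* was at 225 CPM (186 to 269) and 192 CPM (137 to 261), a ratio of 0.852 (0.580 to 1.23). The intervals of the levels did not overlap for *Mbp* and did for *Ugt8a*. With TMM scaling, chosen for single genes after seeing the data, the ratio of *Mbp* was 1.34 (0.941 to 1.90), an interval that includes 1, and that of *Ugt8a* was 0.669 (0.455 to 0.965), which lies below 1. With that scaling 27.9% of all 1101 genes in OPCs were above 1, with a median log2 ratio of -0.40. Which of the 2 intervals excluded 1 in OPCs thus rested on the scaling. *Mbp* was also higher in the CKO library in ECs, from 19.1 to 27.1 CPM, and in astrocytes, from 36.0 to 162 CPM, at ratios of 1.42 (1.12 to 1.81) and 4.51 (3.13 to 6.56). With TMM scaling the ratio in ECs was 1.32 (1.04 to 1.69). The share of ECs with *Mbp* was 2.75% in both libraries. There the 10 nuclei with the most held 31.2% and 36.7% of the UMIs of the 9 genes, which the intervals do not cover. In astrocytes the 10 nuclei with the most held 74.3% and 71.4% of the UMIs of the 9 genes. *Mbp* was found in 2.12% (1.30 to 3.26) of control and 3.57% (2.28 to 5.31) of CKO astrocytes, at median depths of 1150.5 and 578.5 UMIs, with intervals that overlapped. Summed over the 9 genes, the ratio in OPCs was 1.15 (0.910 to 1.44), and without *Mbp* it was 0.861 (0.626 to 1.17), on the other side of 1. TMM scaling lowered every log2 ratio in OPCs by 0.35 and gave 0.899 for the sum of the 9 genes. In nuclei with at least 1000 UMIs the summed ratio was 0.792. It stayed above 1 after thinning to 500 UMIs per nucleus, at 1.14, and with the mean CPM of nuclei, at 1.43. The direction of the sum in OPCs thus differed between settings.

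Markers of several cell types differed between the 2 libraries in OPCs. The 10 OPC markers summed to 31964 CPM in the control and 25747 in CKO, led by *Lhfpl3* at 10744 and 8901 CPM. The 8 astrocyte markers summed to 615 and 1432 CPM, led by *Slc4a4*, and all 8 had UMIs in both libraries. The 9 neuron markers summed to 3073 and 4218 CPM, led by *Nrg1*, with all 9 detected. CKO OPCs were also shallower, at a median of 616.5 UMIs against 986. The part of these in the values of the myelin genes was not tested. In ECs, 2 genes, *Mbp* and *Mobp*, had at least 100 UMIs, and 0 were past a fold of 2 in either direction, against 7.5% higher and 2.87% lower among 9792 genes. The ratio of *Mobp* in ECs was 1.46 (0.987 to 2.17), and that of the sum was 1.13 (0.958 to 1.33). *Ugt8a*, with 25 and 11 UMIs, went the other way in ECs, at 0.373 (0.165 to 0.785). The direction of the sum in ECs turned without *Mbp*, at 0.918 (0.733 to 1.15), after thinning to 500 UMIs per nucleus, at 0.912, and with the mean CPM of nuclei, at 0.818. TMM scaling lowered every log2 ratio in ECs by 0.10, and with it 5.94% of all genes were higher and 3.87% lower by a fold of 2.

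**Figure D2:**
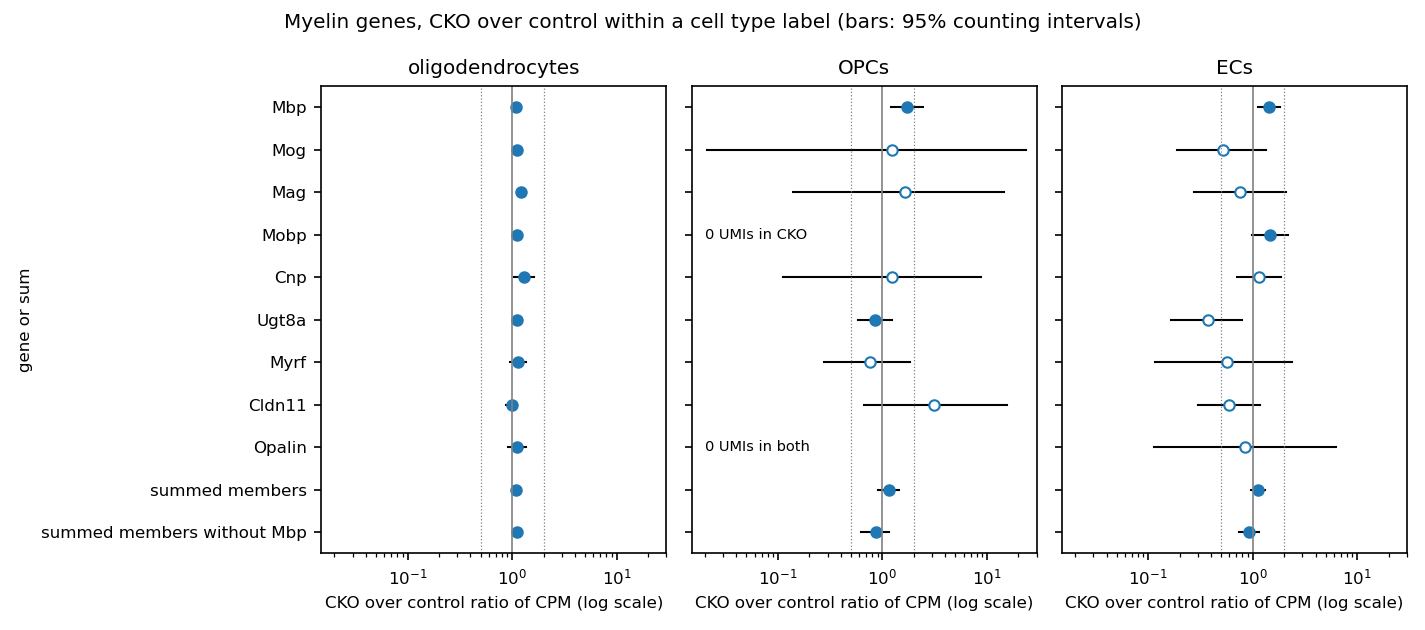
CKO over control ratio of CPM on a logarithmic axis for each myelin gene and for their sums, in oligodendrocytes, OPCs and ECs, with 95% exact conditional binomial intervals as bars, filled points for at least 100 UMIs over both libraries and open points for fewer. The solid line marks 1 and the dotted lines mark 0.5 and 2, and the points for oligodendrocytes lie between 0.991 and 1.30.

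The share of nuclei in which the genes were detected depended on depth, so it was also taken after thinning each nucleus to 500 UMIs. Median depth before thinning was 2328 and 954.5 UMIs in control and CKO oligodendrocytes, 986 and 616.5 in OPCs and 1347 and 1491 in ECs. The thinning left out 13 control and 46 CKO oligodendrocytes and 46 control and 69 CKO OPCs with fewer UMIs. *Mbp* was then found in 96.1% (94.2 to 97.5) of control and 97.1% (95.5 to 98.3) of CKO oligodendrocytes, and in 97.8% and 98.8% before thinning. In OPCs it was found in 5.65% (3.48 to 8.59) and 10.1% (5.62 to 16.3), before thinning in 11.0% and 19.2%. The background share of *Mbp* in ECs was 0.923% and 1.15% after thinning, and 2.75% and 2.75% before it. *Ugt8a* was found in 13.0% (9.67 to 16.9) and 12.2% (7.29 to 18.9) of thinned OPCs, and in 24.5% and 17.8% before thinning. In ECs its share was 0.291% and 0.115% after thinning and 0.687% and 0.374% before it. Detection of both genes in OPCs was thus above that in ECs at equal depth, and the intervals of the control and CKO libraries overlapped in OPCs. *Mag* illustrates the effect of depth in oligodendrocytes. It was in 75.8% of control and 65.3% of CKO nuclei before thinning, but in 37.3% and 47.1% after it, so that the order of the libraries turned. In ECs *Mag* was in 0.364% and 0.272% of nuclei before thinning and in 0.0971% and 0.0769% after it.

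Nuclei also differed in how many of the 9 genes they held. At 500 UMIs the median was 3 genes in control and 4 in CKO oligodendrocytes, and before thinning 6 and 5. At least 3 genes were found in 70.5% and 76.4% of thinned oligodendrocytes. In thinned OPCs the median was 0, and the highest number was 2 in both libraries. Before thinning, 2 control and 3 CKO OPCs held 4 of the genes and none held more. The UMIs of the 9 genes in OPCs were spread over 150 of 400 nuclei in the control and 71 of 208 in the CKO library, and the 10 nuclei with the most held 25.0% and 35.1% of them. Detection in OPCs was mostly of a single gene per nucleus, whereas most oligodendrocytes held several.

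**Figure D3:**
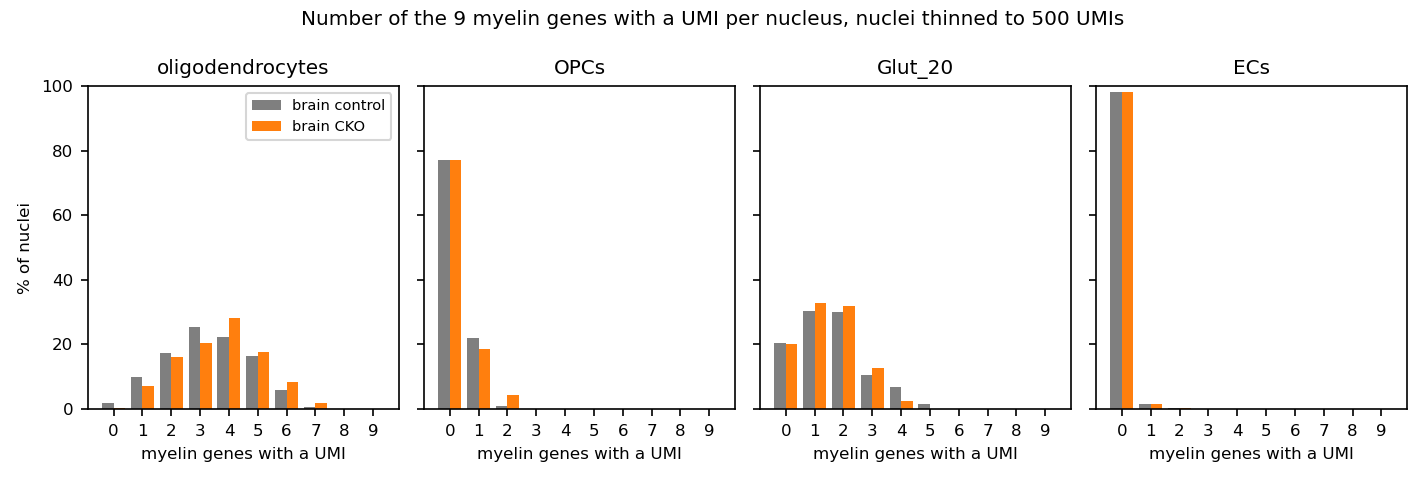
Percent of nuclei (vertical axis) with a UMI of 0 to 9 of the myelin genes (horizontal axis) in oligodendrocytes, OPCs, Glut_20 and ECs of the control (gray) and CKO (orange) library, each nucleus thinned to 500 UMIs. No gene was found in 2.03% and 0.337% of oligodendrocytes, 77.1% and 77.0% of OPCs, and 98.1% and 98.0% of ECs.

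Other genes of the pathway were compared by list within oligodendrocytes. Among lists of 16 other myelin protein genes, 14 genes of lipid synthesis, 12 genes of newly formed and 13 of mature oligodendrocytes and 12 transcription factors, 11, 11, 11, 9 and 7 had at least 100 UMIs. In each list 0 genes were past a fold of 2 in either direction, under both scalings. The CKO over control ratio was above 1 for 10 of 11 other myelin protein genes, with a median log2 ratio of 0.10, and for 9 of 11 lipid synthesis genes, with a median of 0.35. It was above 1 for 10 of 11 genes of newly formed oligodendrocytes (median log2 ratio 0.33), 7 of 9 of mature oligodendrocytes (0.27) and 7 of 7 transcription factors (0.26). Over all genes the median was -0.06, and 46.5% of genes had a ratio above 1. With TMM scaling the ratio was above 1 for 11, 10, 10, 8 and 7 genes of these lists in the order given, and *Cd9*, *Srebf2* and *Car2* crossed 1. That scaling moves all ratios alike, and with it 54.5% of all genes were above 1, with a median log2 ratio of 0.09.

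The highest and lowest ratios of each list in oligodendrocytes were taken among the genes with at least 100 UMIs. *Sqle*, for an enzyme of sterol synthesis, was at 75.4 CPM in the control library and 111 in CKO, a ratio of 1.47 (1.10 to 1.97), and *Scd2*, for a fatty acid desaturase, was lowest of its list at 0.879 (0.680 to 1.13). Of the other myelin protein genes, *Jam3* was at 559.6 CPM in the control library and 656 CPM in CKO, a ratio of 1.17 (1.05 to 1.31), the highest of the list. *Cd9* was the lowest at 0.942 (0.661 to 1.33). Of the genes of mature oligodendrocytes, *Gsn* was at 662 CPM in the control library and 955 CPM in CKO, a ratio of 1.44 (1.31 to 1.59), and *Ppp1r14a* was lowest at 0.863 (0.629 to 1.17). Of the genes of newly formed oligodendrocytes, *Neu4* was highest at 1.68 (1.12 to 2.49). *Gpr17*, for a receptor of cells on the verge of myelination, was lowest at 0.843 (0.609 to 1.15). Among transcription factors the range was from *Prox1* at 1.05 (0.851 to 1.28) to *Olig2*, a regulator of the whole lineage, at 1.29 (0.884 to 1.88). The intervals of *Jam3*, *Gsn*, *Sqle* and *Neu4* lay above 1, and those of *Scd2*, *Cd9*, *Ppp1r14a*, *Gpr17*, *Prox1* and *Olig2* included it. Some genes with fewer UMIs lay outside these ranges. *Fasn*, the fatty acid synthase of the lipid list, had 30 and 40 UMIs, a ratio of 2.84 (1.72 to 4.72). *Carm1* of the transcription factors had 11 and 13 UMIs, a ratio of 2.52 (1.04 to 6.20), and *Cntn2* of the other myelin protein genes had 15 and 0 UMIs.

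The same lists were compared in OPCs, where fewer of their genes had enough UMIs. Of the 10 OPC markers, 9 had at least 100 UMIs, and 8 of them had a CKO over control ratio below 1, with a median log2 ratio of -0.36 against -0.05 over all 1101 genes, of which 46.9% were above 1. With TMM scaling all 9 were below 1, and 0 were past a fold of 2 under either scaling. TMM scaling left 27.9% of all genes in OPCs above 1. *Cspg4* was at 503 CPM in the control library and 354 CPM in CKO, a ratio of 0.704 (0.536 to 0.915), the lowest, and *Megf11* was the highest at 1.12 (0.946 to 1.33). Of a list of 9 genes taken as inhibitors of differentiation, 2 had enough UMIs. Whether *Pcdh15*, 1 of these 2, has that role was not examined. *Sox5*, for a transcription factor that keeps precursors immature, was at 2136 CPM in control and 1139.6 in CKO OPCs, a ratio of 0.534 (0.462 to 0.614), and *Pcdh15*, for a protocadherin of OPCs, was at 0.636 (0.587 to 0.688). Both intervals lay below 1, and with TMM scaling both genes were past a fold of 2, at 0.419 and 0.499, as were 17.2% of all genes in that direction and 2.54% in the other. In oligodendrocytes, where *Sox5* and *Pcdh15* were also the ones with enough UMIs, their ratios were 0.930 (0.640 to 1.33) and 1.72 (1.37 to 2.17), and that of *Sox5* crossed 1 with TMM scaling, at 1.03. Their median log2 ratio was -0.78 in OPCs and 0.34 in oligodendrocytes.

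Of the transcription factors, 5 had enough UMIs in OPCs and 4 were below 1, with a median log2 ratio of -0.22. They ranged from *Zeb2*, whose product promotes myelination, at 0.689 (0.604 to 0.785) to *Zfp536* at 1.44 (1.18 to 1.76). Of the other myelin protein genes, 5 had enough UMIs and 4 were below 1 (median -0.20), from *Sirt2* at 0.608 (0.394 to 0.912) to *Nfasc* at 1.47 (1.13 to 1.89). The genes of newly formed oligodendrocytes were 3 above and 4 below 1 of 7 (median -0.01), from *Neu4* at 0.682 (0.436 to 1.04) to *Fyn* at 1.15 (1.02 to 1.29). With TMM scaling all 7 were below 1, and *Sirt2* was past a fold of 2 at 0.477. Without TMM scaling 0 genes of these 3 lists were past that fold. Of all 1101 genes in OPCs, 46.9% were above 1, and 27.9% with TMM scaling. Lower by a fold of 2 were 8.99% of them, and 17.2% with TMM scaling. Of the lipid synthesis genes only *Fa2h* had enough UMIs in OPCs, at 0.871 (0.550 to 1.34), and of the genes of mature oligodendrocytes 0 did. Some genes with fewer UMIs in OPCs lay outside these ranges, with intervals that did not include 1 without TMM scaling. Of the transcription factors, *Olig1* had 40 and 3 UMIs, a ratio of 0.187 (0.0370 to 0.587), and *Zfp488* had 49 and 5 UMIs, a ratio of 0.254 (0.0791 to 0.635). Of the genes of newly formed oligodendrocytes, *Cemip2* was at 3.43 (1.72 to 6.98) and *Rras2* at 8.73 (1.66 to 86.1), whereas *Lims2* was at 0.139 (0.00332 to 0.877). Of the other myelin protein genes, *Pllp* was at 0.531 (0.268 to 0.978), *Jam3* at 1.70 (1.05 to 2.72) and *Cntn2* at 2.04 (1.18 to 3.50), and of the OPC markers *C1ql1* was at 0.499 (0.252 to 0.913). Of the lipid synthesis genes, *Fdft1* was at 5.61 (1.57 to 24.9) and *Scd2* at 6.23 (1.02 to 65.5), and *Fasn* had 0 and 3 UMIs. Of the genes of mature oligodendrocytes, *Ptgds* was at 0.222 (0.0579 to 0.608) and *Anln* at 0.147 (0.00351 to 0.936).

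In oligodendrocytes, 6 OPC markers had at least 100 UMIs, and all 6 had ratios above 1, with a median log2 ratio of 0.33, from *Sox6* at 1.14 (1.02 to 1.27) to *Lhfpl3* at 1.58 (1.35 to 1.84). The most abundant of them in oligodendrocytes was *Tnr*, at 2348 and 2910.4 CPM. Of all 2572 genes there, 46.5% had a ratio above 1, and 54.5% with TMM scaling, and the median log2 ratio was -0.06. The other lists in oligodendrocytes also had medians above 0, from 0.10 for other myelin protein genes to 0.35 for lipid synthesis genes. The median ratios of the OPC markers with enough UMIs thus lay on opposite sides of 1 in OPCs and in oligodendrocytes. Of OPC markers with fewer UMIs, *Megf11* had 54 and 13 UMIs in oligodendrocytes, a ratio of 0.513 (0.257 to 0.952), and *Pdgfra* had 6 and 11 UMIs, a ratio of 3.90 (1.32 to 12.9). Whether these ratios differ between the labels was not tested.

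The genes whose levels were most like those of the 9 genes were sought over the 38 values of labels and libraries with at least 100000 UMIs, among 14448 genes, as Pearson's r of log2(CPM + 1) with the mean scaled level of the 9. Among the nearest outside the list were *Tspan2* at 0.918, *Plxnb3* at 0.917, *9630013A20Rik* at 0.899 and *Ermn* at 0.884. The 9 genes themselves were between 0.868 for *Opalin* and 0.975 for *Mbp*. The points share 2 libraries, so r is a description. *Tspan2*, for a tetraspanin, was at 1162 and 1252 CPM in control and CKO oligodendrocytes, at 32.6 and 67.0 in OPCs and at 51.9 and 51.4 in ECs.

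MYRF, the product of *Myrf*, binds DNA, and the 250 bases before the start of each gene's canonical transcript (GENCODE M39, GRCm39) were searched for CTGGCAC and CTGGTAC on both strands. Of the 9 genes, 3 held a match (*Cnp*, *Myrf* and *Mog*), as did 5.80% of 21770 protein-coding genes. Those of *Cnp* and of *Myrf* itself are shown here as examples of the 3, 5′ to 3′ on the strand of the gene and with matches on either strand in capitals. A match is a description and not a bound site.
Cnp chr11:100465480-100465729 (plus strand): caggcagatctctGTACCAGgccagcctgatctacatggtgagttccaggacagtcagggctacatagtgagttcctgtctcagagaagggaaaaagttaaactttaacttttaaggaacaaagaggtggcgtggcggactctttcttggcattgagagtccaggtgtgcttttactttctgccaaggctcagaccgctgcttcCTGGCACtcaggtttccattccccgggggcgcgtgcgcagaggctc
Myrf chr19:10218162-10218411 (minus strand): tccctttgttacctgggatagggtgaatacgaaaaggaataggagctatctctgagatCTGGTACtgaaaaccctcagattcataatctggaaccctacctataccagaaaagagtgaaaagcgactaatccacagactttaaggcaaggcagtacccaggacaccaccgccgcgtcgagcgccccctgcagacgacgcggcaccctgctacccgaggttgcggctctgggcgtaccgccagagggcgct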

How the data were processed

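Both single-nucleus brain libraries, control and CKO, were used. What the authors deposited is a matrix of UMI counts: PIPseeker aligned reads to a GRCm39 index, CellBender took out empty droplets and background, SOLO took out doublets, and mixed nuclei were then removed by hand. The submitters' processing notes name mm10 and Seurat. Background removal acts on counts per gene, so low values are values after it. The cell type of each nucleus is the authors' label. The retina libraries were not used.

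UMIs were summed per label and library and divided by their total. Levels have exact Poisson, ratios exact conditional binomial and shares exact binomial 95% intervals. A gene needed at least 100 UMIs over both libraries of a label for counts past a fold of 2. TMM factors came from edgeR 4.0.16 in R 4.3.3, and the rest was done in Python 3.11.15 with scipy 1.17.1, numpy 2.4.6, matplotlib 3.10.9 and pandas 2.3.3. Ratios and intervals were run on simulated Poisson sums for oligodendrocytes and OPCs. Such sums leave out the spread between nuclei and mice, so the run checks the computation alone. Genes named are the 9, *Tgfbr1*, OPC markers, the 5 most alike by Pearson's r among genes with at least 200 UMIs, and the highest and lowest ratio of each list. *Xist*, *Uty*, *Srebf2*, *Car2*, genes given with fewer UMIs than the minimum and genes that lead a marker list were named after their values were seen. The genes and lists were chosen with earlier results of these data known. Alternatives covered scaling, depth, thinning, weighting of nuclei, the total, *Mbp* and the labels. Some items that these rules name are not reported here.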

Additional observations from a re-analysis of the deposited data

Results flagged for a closer look

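For 3 of the 9 genes the CKO over control ratio had an interval below 1 in a label and above 1 in another, among labels with at least 100 UMIs of the gene. *Mbp* was at a ratio of 0.637 (0.477 to 0.843) in the neuron cluster Glut_0, with 163 and 74 UMIs, and above 1 in oligodendrocytes, OPCs, ECs, astrocytes, vSMCs, glia, CP_6 and Glut_21. With TMM scaling the ratio of *Mbp* in OPCs was 1.34 (0.941 to 1.90), an interval that includes 1. *Mog* had 115 UMIs in control and 0 in CKO nuclei of Glut_20, where it was at least 12.9-fold lower in the CKO library against the 3 UMIs that a count of 0 allows, and at a ratio of 1.11 (1.03 to 1.21) in oligodendrocytes. In the same nuclei *Mbp* had 802 and 260 UMIs, a ratio of 0.960 (0.831 to 1.11), and *Mag* a ratio of 1.33 (0.910 to 1.92). *Opalin* also had 0 UMIs there in CKO nuclei, against 13 in the control. These counts are values after background removal per gene, and its part in the counts of 0 was not tested, so the bound covers counting error alone. *Cnp* was at 0.597 (0.425 to 0.823) in Glut_20 and 1.30 (1.04 to 1.61) in oligodendrocytes. Each rests on 1 library per genotype, and the differences between labels were not tested.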

How the results depend on the processing

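Of 54 alternative values, 36 stayed within the counting interval of the value reported, or, for counts, at 0, and 18 moved beyond it, of which 0 turned a ratio whose interval excluded 1. With TMM scaling the summed CKO over control ratio was 1.22 in oligodendrocytes and 0.899 in OPCs. With nuclei of at least 1000 UMIs it was 0.792 in OPCs, the oligodendrocyte over OPC ratio was 57.2 in the CKO library, and ECs were at 0.201% of control oligodendrocytes. Thinned to 500 UMIs, the CKO over control ratio was 1.12 in oligodendrocytes and 0.912 in ECs, and control ECs were at 0.312% of oligodendrocytes. With the mean CPM of nuclei, the CKO over control ratio in ECs was 0.818, the oligodendrocyte over OPC ratio in the CKO library 32.6, and ECs were at 0.267% and 0.197% of control and CKO oligodendrocytes. Without *Mbp*, the CKO over control ratio was 1.13 in oligodendrocytes, 0.861 in OPCs and 0.918 in ECs, the control oligodendrocyte over OPC ratio 28.6, and control ECs were at 0.295%. The cause was not tested. The CKO over control ratio of the sum stayed above 1 in oligodendrocytes under all 7 alternatives, and in OPCs and ECs it lay on both sides of 1. Counts past a fold of 2 were 0 in oligodendrocytes and OPCs under the alternatives run. In ECs, where alternatives were added after seeing the data, a minimum of 30 UMIs gave 1 gene, *Ugt8a*, and TMM scaling 0. A minimum of 300 UMIs left 0 genes in OPCs and in ECs. No paired analysis was possible because each genotype has 1 library. OPCs held 248 and 114 UMIs of the 9 genes, which limits precision there.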

Other observations

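Nuclei labeled oligodendrocytes were 3.62% of the control and 4.36% of the CKO library, and OPCs 2.40% and 1.42%. The centrifugation that enriched vessels can set these shares. Over all nuclei, *Mbp* was at 389 CPM in the control library and 326 in CKO and *Cldn11* at 36.5 and 22.9. *Ugt8a* in the neuron cluster Glut_1 was at 6.78 CPM (4.98 to 9.02) in the control and 6.78 (4.58 to 9.68) in the CKO library, where *Mbp* was at 5.77 (4.12 to 7.86) and 10.6 (7.81 to 14.1). In oligodendrocytes *Ugt8a* was at 1021 CPM and *Mbp* at 10960.5 in the control, so that Glut_1 held these 2 genes in another proportion. The source of these UMIs was not tested.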
